A study of Mus musculus with 15 samples.

Results

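A set of 9 genes of the junctions between epithelial cells were followed across liver and liver tumours of mice that lack the phospholipid transporter Mdr2, whose current symbol is Abcb4. The genes were chosen by name and not by a cut on their values, but with earlier results of these data known. They were the claudins Cldn1, Cldn2, Cldn3 and Cldn12 and the tight junction genes Ocln, F11r and Tjp1. The others were the adherens junction gene Cdh1 and the gap junction gene Gjb1. Of these 9 genes, 8 had a probe set annotated to them, 17 probe sets in all, and no probe set was listed for Cldn12, which was not analysed here. The 15 probe sets that passed a filter on low signals covered all 8 genes, out of 9528 genes tested. The 2 that did not pass, 1438850_at and 1438851_x_at, belong to Cldn1 and were not above the 40th percentile of their array on any of the 15 arrays, and 2 other probe sets represent that gene.

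Liver RNA of mice aged 16 months was hybridised to Affymetrix arrays, 1 array per sample. The control group was liver of 3 mice heterozygous for the Mdr2 knockout, so the controls carry the knockout allele too. The other groups were non-tumorous liver of 6 homozygous knockout mice and 6 tumours from 4 of those mice. Each tumour's number starts with that of its mouse and matched liver: tumours 3 and 4 are single, whereas mouse 5 gave 5-1 and 5-2 and mouse 6 gave 6-1 and 6-2, so the tumours are not 6 independent animals. The design text names the 430 2.0 array, whereas the table held 22690 probe sets. The knockout is germline, and whole tissue was extracted, so hepatocytes, bile ducts, vessels and inflammatory cells contribute to each value, and fewer cells of a type cannot be told apart from less RNA per cell.

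Tight junctions seal the space between neighbouring epithelial cells. In liver they separate bile in the canaliculi between hepatocytes from blood. Claudins form the strands of the seal and set which ions and water pass, occludin and the immunoglobulin-like protein JAM-A lie beside them in the membrane, and the scaffold ZO-1 ties all of them to actin. E-cadherin holds cells together in the adherens junction next to the seal, and connexins form channels that let small molecules move between hepatocytes. Loss of Mdr2 removes phosphatidylcholine from bile, which leaves bile salts free to damage the bile duct lining, and the mice go on to develop inflammation, fibrosis and liver tumours.

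The promoters of Cldn3 and Cldn2 are shown because these claudins differed in how their tumours deviated from liver, Cldn3 on every tumour array and Cldn2 mainly on a pair of them. The sequences run 5′ to 3′ from 250 bases before the start site to 30 bases after it, from RefSeq on build GRCm38.p6, both on the plus strand. In the first, at chr5:134985964-134986243, capitals mark a GC box read on the other strand (CCGCCC, first base at -236). In the second, at chrX:139800558-139800837, they mark a TATA box (TATAAA, first base at -35).
Cldn3: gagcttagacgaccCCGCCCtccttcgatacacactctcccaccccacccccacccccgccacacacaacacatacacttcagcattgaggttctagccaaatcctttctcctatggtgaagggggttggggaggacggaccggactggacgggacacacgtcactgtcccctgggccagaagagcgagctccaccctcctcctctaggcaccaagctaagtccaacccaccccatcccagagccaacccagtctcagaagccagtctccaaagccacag
Cldn2: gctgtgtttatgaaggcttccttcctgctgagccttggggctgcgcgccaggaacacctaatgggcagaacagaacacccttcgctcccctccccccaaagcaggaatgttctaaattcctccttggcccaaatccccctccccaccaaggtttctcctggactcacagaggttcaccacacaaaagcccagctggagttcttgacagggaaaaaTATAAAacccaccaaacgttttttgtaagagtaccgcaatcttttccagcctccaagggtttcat
Windows of 300 bases were matched by symbol for 8 of the 9 genes, Cldn12 among them, and not for Cdh1, which was not searched. Both strands were searched for 6 motifs. The letters TATAAA are in 13.6% of 32851 promoter windows of 300 bases and the GC box GGGCGG is in 35.7%. The E-box CAGGTG, which the repressors Snail and ZEB can read, is in 20.2% of the windows. It was found in the windows of Cldn3 (first base at 32, past the end of the stretch above), Ocln, F11r and 1 of the 4 windows of Gjb1. The letters CCAAT are in 37.4% of all windows, the TCF core CTTTGAT in 3.73% and the HNF4 core CAAAGTCCA in 0.475%, and neither of the last pair was found in the windows of Cldn3 and Cldn2. A match is a description of the letters and not evidence that a factor binds.

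Values below are MAS5 signals on a linear scale, which can be compared between arrays for 1 probe set but not between probe sets. Log2 changes were taken on log2(signal + 9.1), which makes the change of a dim gene smaller than the ratio of its signals. A gene was called where the Benjamini-Hochberg adjusted p over all 9528 genes was under 0.05 in limma. Median signals were 35.8 to 51.2 over the arrays. Abcb4 itself checks the labels: its signal was 779 to 1006 in the 3 controls, 177 to 306 in the 6 knockout livers and 123 to 681 in the tumours, so the knockout livers lay below every control (log2 change -1.89, adjusted p = 0.0143), and tumour 4 was the brightest of the knockout samples. The labels do not place its probe set against the deleted part. Actin probes at the 3′ end over those at the 5′ end, a sign of how complete the RNA is, gave a ratio of 2.99 ± 0.414 (SD, n = 3) in controls, 2.09 ± 0.393 (SD, n = 6) in knockout livers and 1.78 ± 0.208 (SD, n = 6) in tumours. It therefore moved with the groups, and its part in the differences from controls was not tested beyond the fits that carry it as a covariate. Hepatocyte markers summed to 105200 to 114300 in controls, 83950 to 106700 in knockout livers and 73540 to 91430 in tumours, and each of the 10 markers measured was above the 40th percentile on at least 1 array of every group. Such a sum over probe sets, here and below, mostly follows its brightest genes.

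The 3 comparisons did not call the same set of members, though both comparisons with control called Cdh1. In non-tumorous knockout liver, Cdh1 rose 3.92-fold over control liver and no other member passed the test, 1 of 8 against 1.68% of all genes called. In tumours against control liver, Cldn3 fell and Cdh1 rose, 2 of 8 members against 6.87% of all genes. In tumours against non-tumorous knockout liver, limma called 0 of the 8 genes, in a comparison that called 0.136% of all genes. Of all genes, 10.3% had an unadjusted p under 0.05 there, among them 3 members, Cldn3, Cdh1 and Cldn2. The median log2 change of the 8 members was 0.11 in knockout liver against control (all genes -0.019), -0.18 in tumour against knockout liver (all genes 0.0083) and -0.22 in tumour against control (all genes -0.021). Non-tumorous liver and tumour are compared with the same 3 controls, so these comparisons are not independent of each other.

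**Figure D1:**
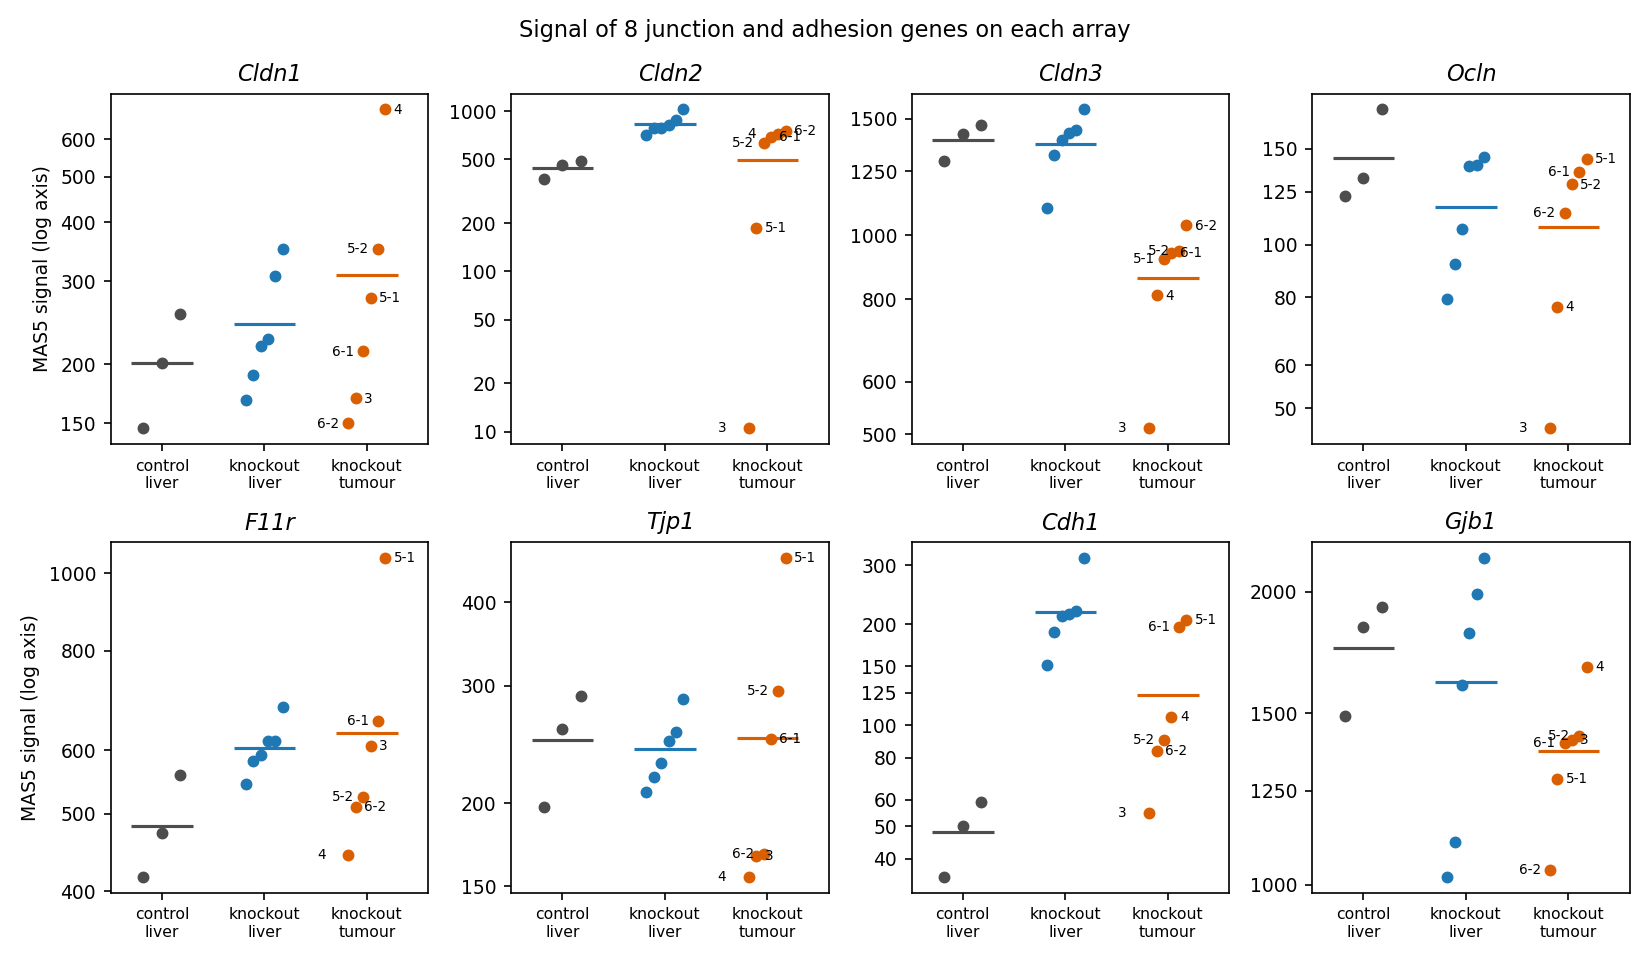
MAS5 signal (log axis) of the brightest probe set of each of the 8 genes on every array, with points for arrays, bars for group means and tumour numbers beside the points. All 6 Cldn3 tumour points lie below the livers, the Cldn2 points of tumours 3 (10.5) and 5-1 (186) lie far below the rest, and the 6 knockout liver points of Cdh1 lie above the 3 controls.

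Cldn3, a sealing claudin of hepatocytes and bile ducts, was steady in both kinds of liver and lower in each tumour. Its brightest probe set, 1434651_a_at, had signals of 1294, 1422 and 1468 in control livers 1 to 3. In knockout livers 1 to 6 it had 1393, 1444, 1427, 1320, 1550 and 1100, and in tumours 3, 4, 5-1, 5-2, 6-1 and 6-2 it had 510, 811, 921, 945, 941 and 1035. The brightest tumour, 6-2, was below the dimmest liver, liver 6, while controls and knockout livers overlapped throughout. Means were 1394 ± 90.2 (SD, n = 3), 1372 ± 153 (SD, n = 6) and 860 ± 186 (SD, n = 6), so tumours had 0.627 of the mean signal of knockout liver. Of all genes, 0.567% were lower in tumours than in knockout livers without overlap and 6.13% lower than in controls, and Cldn3 is in both sets.

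The fitted change of Cldn3 was -0.72 ± 0.19 (SE) on the log2 scale in tumour against control (adjusted p = 0.0299 in limma, n = 6 and 3). Against knockout liver it was -0.69 ± 0.16 (SE; n = 6 and 6), with an unadjusted p of 3.4e-04 in limma and an adjusted p of 0.105, which missed the threshold. Knockout liver differed from control by -0.029 with a 95% interval of -0.43 to 0.37. The call against controls was lost without any 1 of the 3 controls (limma adjusted p of 0.0813, 0.109 and 0.122 when control 1, 2 or 3 was left out). It was also lost with quantile normalization (0.0502), with those groups alone (0.136) and with the actin ratio as a covariate (0.187, log2 change -1.07). Without tumour 3 the change was -0.58 with an adjusted p of 0.0184.

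All 4 Cldn3 probe sets gave a similar picture. Which stretches of the transcript they read was not examined, and they are not separate observations. Probe set 1426332_a_at had 489 to 592 in controls, 468 to 693 in knockout livers and 166 to 435 in tumours. Probe set 1451701_x_at had 1187 to 1437, 1058 to 1514 and 406 to 1012 in the same groups, and 1460569_x_at had 1092 to 1149, 1023 to 1392 and 422 to 903. In each of them the tumours did not overlap with either group of livers (0.507% of probe sets were lower than in knockout livers without overlap). In the fit over 14796 probe sets, 3 of the 4 were called against control, where 6.24% of probe sets were, with log2 changes of -0.72 for 1434651_a_at, -0.80 for 1451701_x_at and -0.68 for 1460569_x_at (limma adjusted p of 0.0314, 0.0391 and 0.0386), and 1426332_a_at was not (-0.72, adjusted p = 0.0688).

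Against knockout liver, 1 of the 4 passed, 1460569_x_at, with a log2 change of -0.81 ± 0.16 (SE) and an adjusted p of 0.0493 in limma, where 0.122% of probe sets were called. The other 3 had changes of -0.69 to -0.81 and adjusted p-values of 0.106 to 0.128. The call of 1460569_x_at sat at the threshold. It was lost when any 1 of the 15 arrays other than tumour 6-1 was left out (limma adjusted p of 0.0542 without tumour 3 up to 0.153 without liver 3), and without tumour 6-1 it was 0.0269. An x in the name of a probe set marks probes that can also bind other transcripts.

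**Figure D2:**
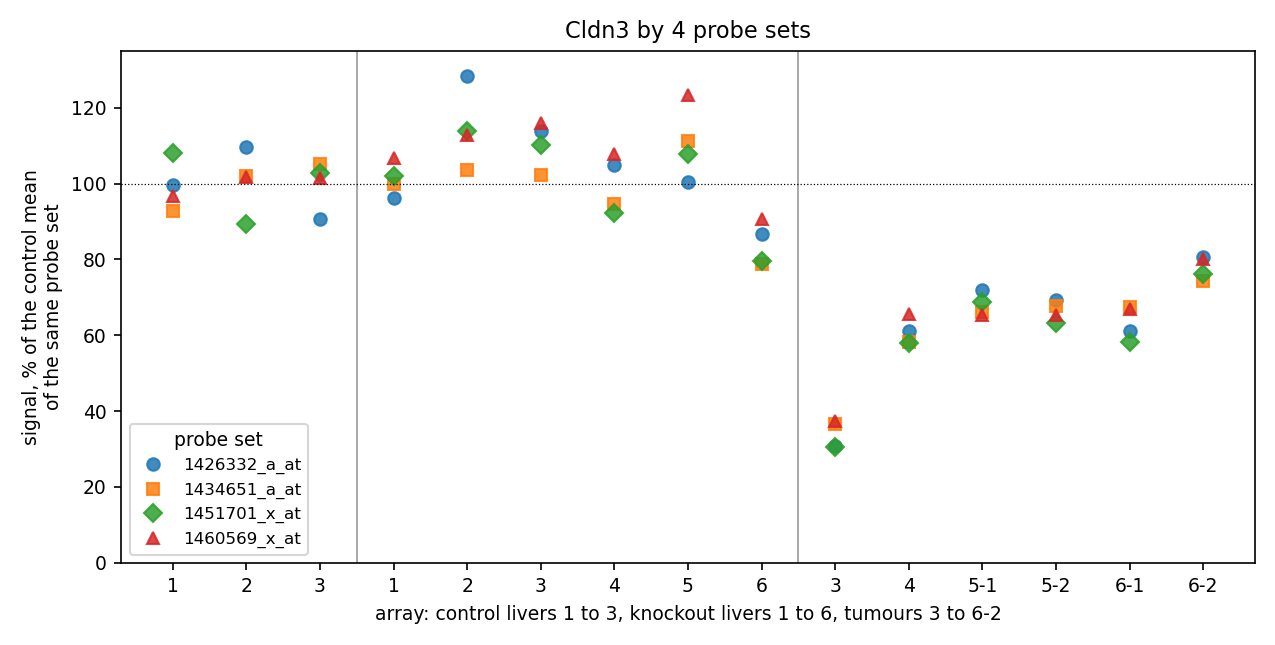
Signal of the 4 Cldn3 probe sets on each of the 15 arrays, as a percent of the mean of the 3 control livers for that probe set, with symbols for probe sets and vertical lines between groups. The 4 probe sets lie below the livers on every tumour array, and tumour 3 is the lowest on each.

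Cldn2, which forms pores for cations and water and in rodent liver is graded along the lobule toward the central vein, was brighter in all knockout livers than in all controls and split the tumours. Its brightest probe set, 1417231_at, had 486, 376 and 460 in controls 1 to 3 and 788, 787, 1024, 879, 706 and 813 in knockout livers 1 to 6. The groups did not overlap (8.01% of genes were higher without overlap), and the ratio of mean signals was 1.89. The tumours had 10.5 in tumour 3, 722 in tumour 4, 186 in tumour 5-1, 634 in tumour 5-2, 687 in tumour 6-1 and 752 in tumour 6-2. Tumour 3 was not above the 40th percentile of its array and tumour 5-1 was below every liver, while the other 4 tumours lay above all controls.

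The change of Cldn2 in knockout liver was not called in the fit of all 15 arrays (log2 change 0.90 ± 0.80 SE, limma adjusted p = 0.631, n = 6 and 3). That fit uses 1 spread for all groups, and the SD of log2 values was 2.10 among the 6 tumours against 0.18 among knockout livers and 0.19 among controls. The tumour spread was larger than that of 99.7% of genes. With the 2 liver groups alone the same change of 0.90 had an adjusted p of 4.25e-04 in limma, and without tumour 3 it had 0.156. Against knockout liver the tumours differed by -1.41 ± 0.66 (SE; adjusted p = 0.472), and by -0.62 without tumour 3 (adjusted p = 0.451). Against control the change was -0.51 (adjusted p = 0.764) and turned to 0.28 without tumour 3.

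The dimmer Cldn2 probe set, 1417232_at, had 61.1 to 113 in controls, 38.9 to 110 in knockout livers and 25.5 to 172 in tumours. Tumours 3 (25.5) and 5-1 (41.9) were again the lowest of the tumours. It did not show the higher signal in knockout livers, with a log2 change of 0.055 and a 95% interval of -0.79 to 0.90. That interval reaches about the change of 0.90 of the brighter probe set. Whether the probe sets differ there was not tested.

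Tumours 3 and 5-1 were also the lowest of the tumours for a pair of genes of hepatocytes around the central vein. Glul, which makes glutamine, had 136 and 145 in those tumours against 513 to 1299 in the other 4. Cyp2e1, a cytochrome P450, had 846 and 812 against 3974 to 10010. Oat, another pericentral gene, did not split the tumours that way, with 263 in tumour 3 and 100.5 in tumour 5-1 but 251 in tumour 6-1. The 11 pericentral markers summed to 11630 in tumour 3 and 1972 in tumour 5-1, with 10780 in tumour 5-2, 16600 to 30080 in the other tumours, 15550 to 20650 in knockout livers and 28490 to 34540 in controls. Of these markers 0 were called in limma in knockout liver, where Cldn2 was brighter, and 2 fell in tumours against control. Their part in the Cldn2 values was not tested.

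Cldn1, a sealing claudin of hepatocytes, varied more between tumours than between groups. Probe set 1437932_a_at had 146 to 256 in controls, and in knockout livers a lowest of 168, a median of 223 and a highest of 351. The tumours had 169, 695, 276, 351, 213 and 150 in tumours 3, 4, 5-1, 5-2, 6-1 and 6-2. Tumour 4 stood above every other array here and on the second probe set, 1450014_at (218 against 43.6 to 137 on all others). No comparison was called, with log2 changes of 0.26 (95% interval -0.51 to 1.02), 0.17 (-0.46 to 0.80) and 0.43 (-0.34 to 1.19) for knockout liver against control, tumour against knockout liver and tumour against control. Without tumour 4 the difference between tumour and knockout liver turned to -0.10.

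The remaining membrane proteins of the tight junction did not pass the test. Ocln, which encodes occludin, had 123, 177 and 133 in controls, 79.4 to 145 in knockout livers and 45.9 to 144 in tumours, with the lowest value in tumour 3. Its changes were -0.30 (95% interval -0.91 to 0.31) in knockout liver against control, -0.16 (-0.66 to 0.34) in tumour against knockout liver and -0.46 (-1.07 to 0.15) in tumour against control.

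F11r, which encodes JAM-A, had 560, 417 and 473 in controls and 545 to 680 in knockout livers on probe set 1424595_at, and the tumours had 444 to 524 in 3 arrays, 608 and 653 in tumours 3 and 6-1 and 1044 in tumour 5-1. Its knockout livers were among the least variable of all genes, with an SD of log2 values of 0.11 that only 3.6% of genes were below. The change in knockout liver was 0.33 with a 95% interval of -0.11 to 0.76, and in tumour against knockout liver 0.0051 (-0.35 to 0.36). The dim second probe set, 1436374_x_at, was above the 40th percentile on 11 arrays and had the opposite sign in knockout liver, -0.64 (-1.44 to 0.17).

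Tjp1, which encodes the scaffold ZO-1, had 197 to 289 in controls, 208 to 287 in knockout livers and 155 to 466 in tumours. Its group means were within 1.04-fold of each other, 248 ± 46.8 (SD, n = 3), 241 ± 28.6 (SD, n = 6) and 250 ± 120 (SD, n = 6). Tumour 5-1 (466) was the brightest array for both Tjp1 and F11r. The changes were -0.032 (95% interval -0.60 to 0.54), -0.052 (-0.52 to 0.42) and -0.083 (-0.65 to 0.49) in the order used above, and their sign changed when single arrays were left out.

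**Figure D3:**
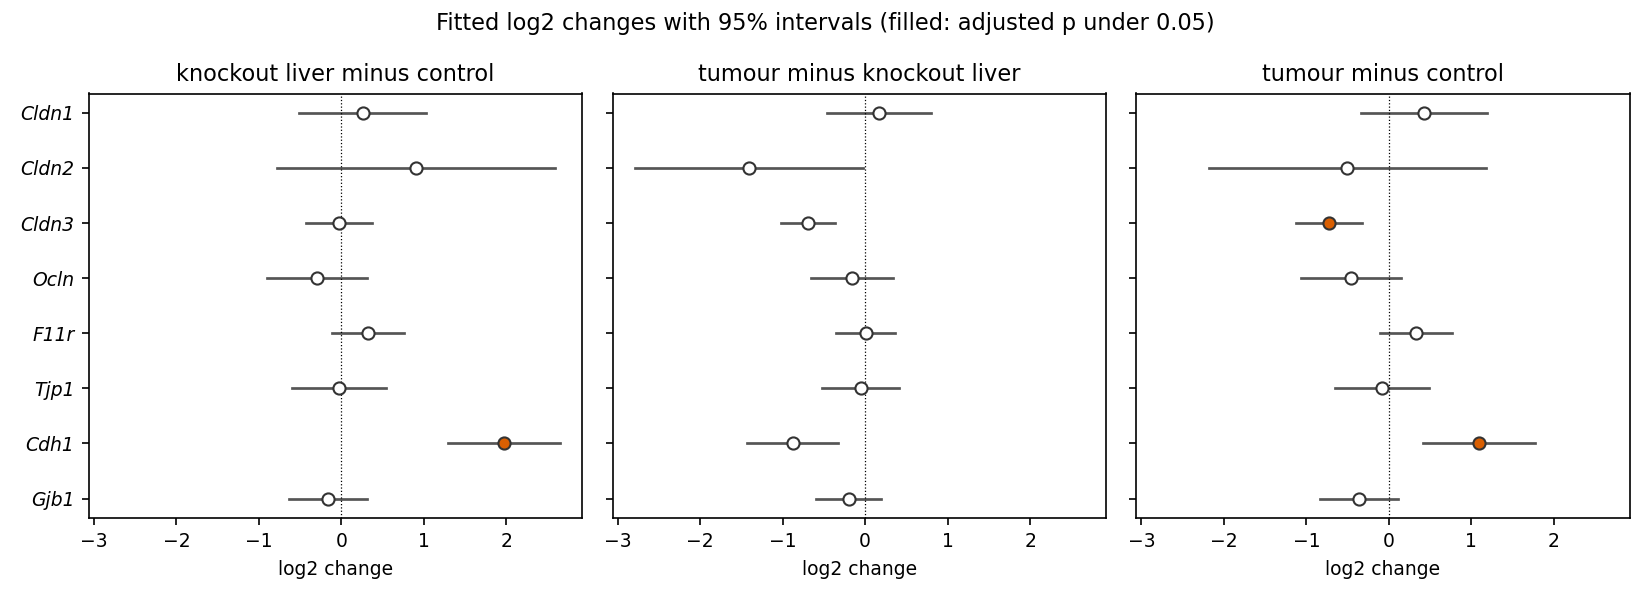
Fitted log2 change of each gene with its 95% interval in the 3 comparisons, filled where the adjusted p was under 0.05. Filled points are Cdh1 at 1.97 in knockout liver against control, and Cdh1 at 1.09 and Cldn3 at -0.72 in tumour against control, and the intervals of Cldn2 are the widest.

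Cdh1, which encodes E-cadherin, the cadherin of epithelial adherens junctions and in mouse liver a protein of bile ducts and of hepatocytes near the portal tract, was the member that rose in knockout liver. Controls 1 to 3 had 58.9, 35.3 and 50.1, and knockout livers 1 to 6 had 316, 215, 212, 219, 151 and 189, so every knockout liver was at least 151 and every control at most 58.9. The tumours had 54.9, 106, 207, 90.4, 196 and 84.0 in tumours 3, 4, 5-1, 5-2, 6-1 and 6-2. Tumours 5-1 and 6-1 lay within the range of the knockout livers, tumour 3 lay within that of the controls, and the other 3 lay between them. Mean signals were 48.1 ± 11.9 (SD, n = 3), 217 ± 54.4 (SD, n = 6) and 123 ± 63.1 (SD, n = 6).

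The rise in knockout liver was 1.97 ± 0.32 (SE) on the log2 scale, 3.92-fold, with an adjusted p of 0.00415 in limma, and the ratio of mean signals was 4.51. It was also called in the probe set fit, where 1.75% of probe sets were. It passed without any 1 array (adjusted p up to 0.0400, without control 2). With the actin ratio as a covariate the change was 1.86 and the adjusted p 0.127. In tumour against control the change was 1.09 ± 0.32 (SE) with an adjusted p of 0.0477 in limma. That call was lost with the compared groups alone (0.215), without the filter (0.0629) and under most single omissions, for example with 0.209 without control 2 and 0.0511 without tumour 4. It was kept without tumour 3 (0.0127) and without tumour 6-2 (0.0450). Tumour against knockout liver gave -0.88 ± 0.26 (SE), an unadjusted p of 0.0038 and an adjusted p of 0.236 in limma, so the lower mean of the tumours did not pass.

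Genes of other cells also differed between the groups that Cdh1 separates. The 11 bile duct markers on the array summed to 155 to 294 in controls, 258 to 530 in knockout livers and 126 to 480 in tumours. In controls 6 of the 11 were not above the 40th percentile on any array, against 1 in knockout livers and 2 in tumours, and Muc1 was at that level in all groups. Of 9 tested, limma called 0 in any comparison, with 7 of the 9 above 0 on the log2 scale in knockout liver. The knockout livers lay above all controls without overlap for the keratin Krt23 (4.0 to 9.4 in controls, 13.3 to 108.4 in knockout livers and 1.8 to 37.2 in tumours; log2 change 1.82, adjusted p = 0.0852 in limma) and for Cldn7 (2.6 to 4.2, 5.6 to 36.3 and 2.6 to 31.1; 1.29, adjusted p = 0.159). Krt23 and Cldn7 were below the 40th percentile of the array in every control. They were 2 of the 9 tested, where 8.01% of all genes were higher without overlap. The markers below 0 in knockout liver were Cldn4, at -1.07 on the log2 scale (adjusted p = 0.174 in limma), and Sox9, at -0.25 (adjusted p = 0.840). The ductal keratin Krt19 had 29.1 to 51.4 in controls and 14.9 to 96.0 in knockout livers. In knockout liver 2 of 9 leukocyte markers rose, Cd68 by 1.67 and Lyz2 by 2.06 on the log2 scale, and 2 of 11 stellate cell and fibroblast markers, Pdgfrb by 1.51 and Lum by 1.95. The 7 periportal markers summed to 22960 to 24720 in controls, 16610 to 23210 in knockout livers and 5687 to 23990 in tumours. Of the 23990 in tumour 3, Cyp2f2 alone gave 12902. Of these 7, limma called 0 in knockout liver, and 3 fell in tumour against control, where Cdh1 was also called: Hal by 1.60, Pck1 by 1.64 and Arg1 by 1.39 on the log2 scale (adjusted p = 0.0464, 0.0144 and 0.0122). In that comparison, where 6.87% of all genes were called, 3 of 9 leukocyte markers rose, Ptprc, Cd68 and Lyz2. Of 11 stellate cell and fibroblast markers 1 rose, Col1a1, while 6 of the 11 were below 0 and their median log2 change was -0.10. The part of the markers of these cell types in the Cdh1 values was not tested.

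The 40 tested genes nearest to Cdh1 on chromosome 8, from Ripor1 to Marveld3, were averaged as log2 ratios to the knockout livers, each limited to between -1 and 1. The means were -0.46 in tumour 3, -0.34 in tumour 5-1 and -0.48 in tumour 6-2, and -0.089 to 0.064 in the other 3 tumours. The ratio of Cdh1 itself was -1.79, -0.035 and -1.25 in tumours 3, 5-1 and 6-2. Tumour 5-1 thus had low neighbours and a Cdh1 signal like that of liver. In tumours 4, 5-2 and 6-1 the ratio of Cdh1 was -0.94, -1.15 and -0.11, so tumours 4 and 5-2 had low Cdh1 without low neighbours. The 40 neighbours of Cldn3 had means of -0.056 to 0.099 in the tumours and those of Cldn2 of -0.20 to 0.25. Those of Cldn1 on chromosome 16 had a mean of 0.39 in tumour 4, where the ratio of Cldn1 itself was 1.52. In the other tumours their means were -0.073 to 0.096. The part of the neighbours in these values was not tested.

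Gjb1, which encodes connexin 32, the main gap junction protein of hepatocytes, had 1490, 1842 and 1928 in controls, 1019 to 2168 in knockout livers and 1035 to 1674 in tumours on probe set 1448767_s_at. The knockout livers were split, with livers 3 (1106) and 6 (1019) far below the other 4 (1605 to 2168), and the second probe set, 1448766_at, also had its lowest livers there (759 and 756). The fitted changes were -0.16 (95% interval -0.64 to 0.31) in knockout liver against control, -0.20 (-0.59 to 0.19) in tumour against knockout liver and -0.36 (-0.84 to 0.11) in tumour against control, none of them called. On 1448766_at all 6 tumours (569 to 930) were below the 3 controls (947 to 1322), with a change of -0.42 and an adjusted p of 0.248 in limma, where 5.57% of probe sets were lower without overlap.

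Within the mice that gave both tissues, each tumour can be set beside the liver it grew in. Cldn3 was lower in 6 of 6 tumours than in the matched liver on all 4 probe sets, at 35.7% of the liver signal in tumour 3, 59.4% to 61.4% in tumours 4, 5-1 and 5-2, and 85.6% and 94.1% in tumours 6-1 and 6-2 on the brightest one. Both tumours of mouse 6 were closest to their liver, which was the dimmest of the livers on this probe set. Cldn2 was also lower in 6 of 6 on its brightest probe set, at 1.03% in tumour 3 and 26.3% in tumour 5-1 but 82.1% to 92.5% in the other 4. On the dimmer one, 1417232_at, it was lower in 3 of 6, at 24.9% in tumour 3, 49.9% in tumour 5-1 and 98.5% in tumour 5-2, and higher in the other 3, up to 441% in tumour 6-2. Cdh1 was lower in 4 of 6, at 25.9% to 59.7%, and higher in tumours 5-1 (136.5%) and 6-1 (103.8%), so the pair of tumours from mouse 5 and the pair from mouse 6 went opposite ways. When the mouse was a fixed block and only these 4 mice were fitted, the change of Cldn3 was -0.72 with a limma adjusted p of 0.582, and 0 of 9528 genes were called (731 at an unadjusted p under 0.05).

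**Figure D4:**
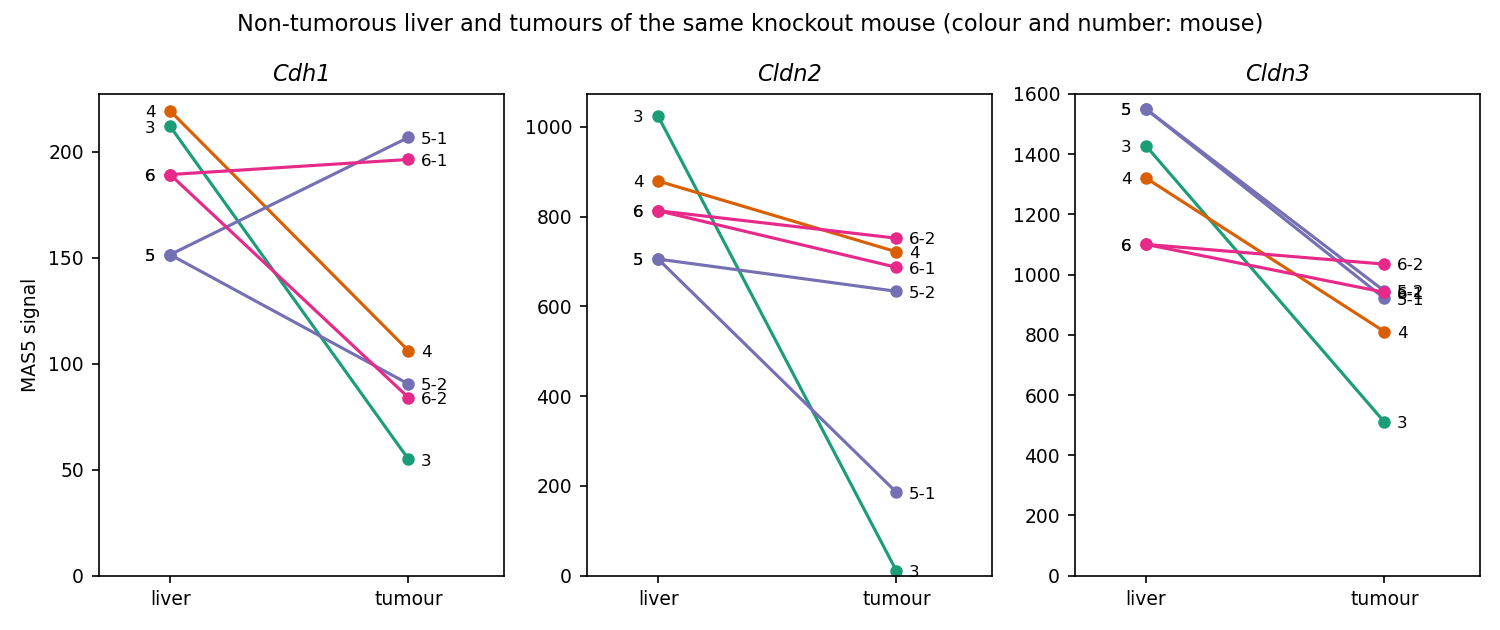
Signal of Cdh1, Cldn2 and Cldn3 in the non-tumorous liver and the tumours of the 4 knockout mice that gave both, with lines joining tissues of 1 mouse. All Cldn3 and Cldn2 lines go down, steeply for Cldn2 in tumours 3 and 5-1 only, and the Cdh1 lines of tumours 5-1 and 6-1 go up.

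Other genes of the junctions, with regulators and markers of the epithelial or mesenchymal state, were 102 tested genes in 7 lists. The list of that state held 16 tested genes, so the shares and medians below are not of junction genes alone. In knockout liver 1 of 102 rose and 0 fell (0.98% against 1.68% of all genes). In tumour against knockout liver 1 rose and 0 fell (0.98% against 0.136%), and in tumour against control 8 rose and 0 fell (7.84% against 6.87%). The medians of the 102 were 0.044, 0.020 and 0.022 on the log2 scale in the same order.

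Neither the remaining claudins nor the other membrane proteins of the junction held a gene that passed. Of 8 other claudins tested, limma called 0 in any comparison, and the brightest, Cldn14, had 104 ± 13.4 (SD, n = 3) in controls, 113 ± 11.4 (SD, n = 6) in knockout livers and 119 ± 14.6 (SD, n = 6) in tumours. Of 13 other membrane proteins 0 were called, and the brightest was Lsr, a protein of the corners where 3 cells meet, at 595 ± 28.5, 934 ± 183 and 988 ± 369 (SD, n = 3, 6 and 6; adjusted p = 0.223 in knockout liver and 0.127 in tumour, both against control). Of 29 plaque proteins, 2 rose in tumours against control, where 6.87% of all genes were called. The median log2 change of the 29 there was -0.11, with 18 of them below 0. Ybx3, a transcription regulator that binds ZO-1, was 0.73 higher on the log2 scale (limma adjusted p = 0.0166). Amot, an angiomotin scaffold, was 1.47 higher (adjusted p = 0.0438). Amot had 52.1 to 61.7 in controls, 106 to 180 in knockout livers and from 48.3 in tumour 3 to 499 in tumour 5-1. Its change of 1.20 in knockout liver was not called (limma adjusted p = 0.169). Ybx3 also rose against knockout liver, by 0.82 (limma adjusted p = 0.0426), with 274 to 356 in all 6 tumours against 119 to 210 in knockout livers.

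The adherens junction list held partners of E-cadherin and the nectins. Of 22 tested, 1 rose in knockout liver, Nectin2, a nectin of epithelial contacts, by 0.98 on the log2 scale (adjusted p = 0.0320), from 80.5 ± 5.39 (SD, n = 3) to 169 ± 22.7 (SD, n = 6). In tumours against control, where 6.87% of all genes were called, 3 of the 22 rose. Ajuba, a LIM protein, rose by 1.82 (limma adjusted p = 0.0200). Vcl, which encodes vinculin, rose by 0.98 (adjusted p = 0.0244) and Nectin2 by 0.96 (adjusted p = 0.0152). Ajuba had 12.9 to 50.3 in controls, 62.9 to 144 in knockout livers and 53.1 to 358 in tumours. Its change of 1.48 in knockout liver was not called (limma adjusted p = 0.104). That of Vcl, 0.61, was not called there either (limma adjusted p = 0.2385). Ctnnb1, which encodes the β-catenin that binds the tail of E-cadherin, was the brightest of the list and had 2164 ± 29.9, 2293 ± 315 and 2338 ± 487 (SD, n = 3, 6 and 6), with a change of 0.013 between tumour and knockout liver (adjusted p = 0.986 in limma).

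Of 10 genes of desmosomes and the keratins they hold, 0 were called in knockout liver and 3 rose in tumours against control. In the latter comparison 6.87% of all genes were called. Ppl, which encodes periplakin, rose by 2.07 on the log2 scale (adjusted p = 0.00146), and the hepatocyte keratins Krt8 and Krt18 by 1.22 and 1.17 (adjusted p = 0.0253 and 0.0184). Krt18 had 1394 ± 252 in controls, 3067 ± 671 in knockout livers and 3336 ± 1436 in tumours (SD, n = 3, 6 and 6), with an adjusted p of 0.0523 in knockout liver. Ppl had 50.1 to 78.1 in controls and 110 to 181.5 in knockout livers (log2 change 1.23, limma adjusted p = 0.0648). Krt8 changed by 1.20 in knockout liver (limma adjusted p = 0.0599). Between tumour and knockout liver the changes were 0.84 for Ppl and 0.015 for Krt8, both uncalled. Of the 10 genes, 4 were higher without overlap in each comparison with control (8.01% and 5.3% of all genes). Of 5 other gap junction genes 0 were called. The brightest was Gjb2, connexin 26, which had 2770 ± 420, 2736 ± 404 and 2030 ± 837 (SD, n = 3, 6 and 6). The last list held 16 tested genes of the epithelial or mesenchymal state, regulators such as Hnf4a, Snai1, Snai2, Zeb1 and Zeb2 together with markers such as Vim and Fn1. Of these, limma called 0 in any comparison. Fn1, the brightest, which encodes the matrix protein fibronectin and is no regulator, changed by -0.12 between tumour and knockout liver (adjusted p = 0.818), and the regulator Hnf4a by -0.12 (adjusted p = 0.838).

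**Figure D5:**
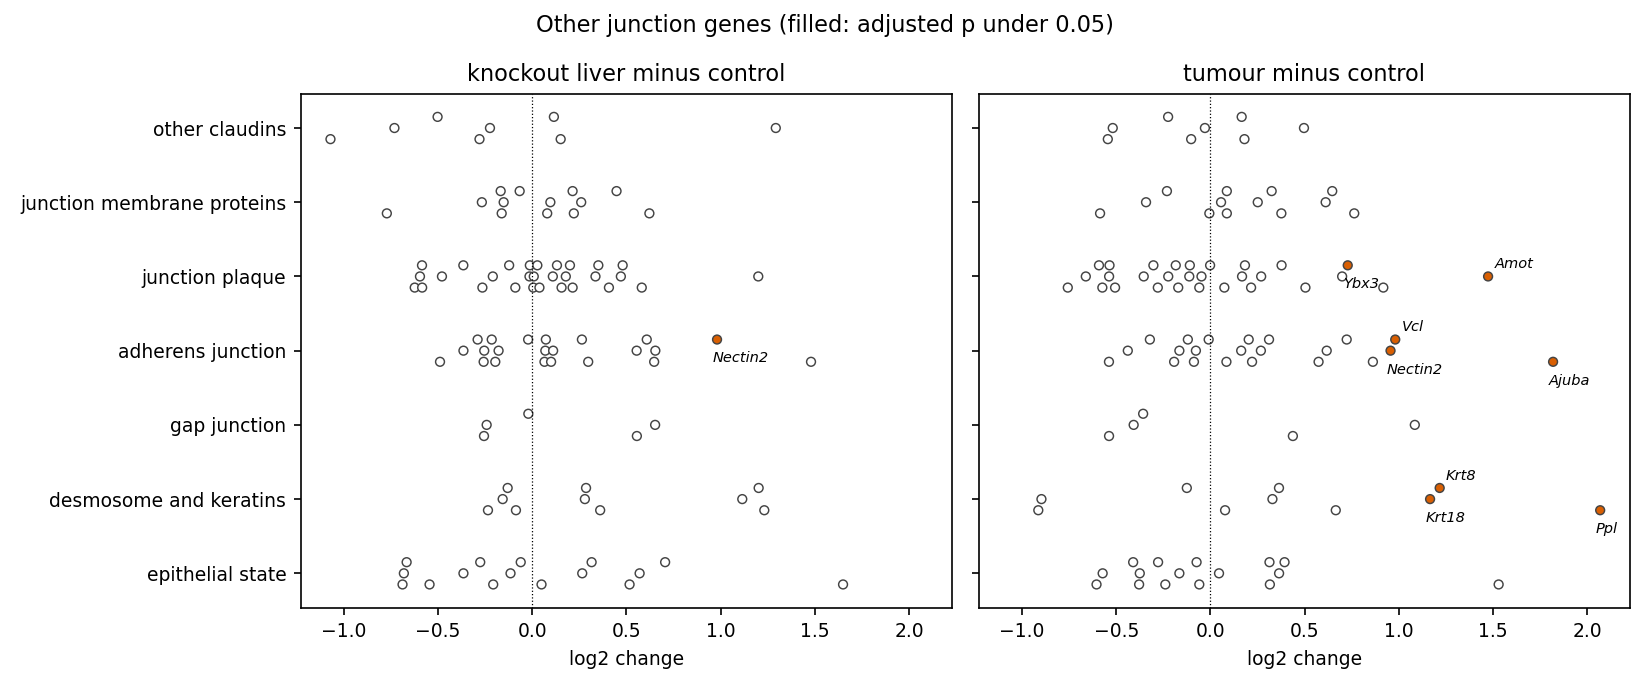
Log2 change of the 102 other genes, of junctions and of the epithelial or mesenchymal state, by list. Panels show knockout liver against control and tumour against control, 1 point per gene, filled and named where the adjusted p was under 0.05. Nectin2 is the filled point on the left, and the 8 on the right, from Ybx3 at 0.73 to Ppl at 2.07, all lie above 0.

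To find genes with a pattern like that of each member, log2 values were standardised per gene over the 15 arrays and the root mean square difference was taken (the median gene was 1.35 to 1.44 from a member). The closest to Cldn3 were Hamp2 (0.292) and Hamp (0.426), both hepcidin genes, which are near-identical copies that probes may not keep apart. Hamp had 8222 to 11990 in controls, 6781 to 11000 in knockout livers and 431 to 7569 in tumours, lowest in tumour 3 as Cldn3 was. Cldn2 was closest to Cystm1 (0.326) and Adprhl2 (0.452), and Cdh1 to Tmem43 (0.458) and Ppan (0.500). F11r was closest to Lamb2 (0.412) and C2 (0.422), and Tjp1 to Lrpap1 (0.466) and Ehmt2 (0.515). Ocln was closest to Sptlc1 (0.519) and Raver1 (0.547), Cldn1 to Zfp36 (0.548) and Slc25a4 (0.549), and Gjb1 to Cpped1 (0.629) and Ggcx (0.649). Among the members the closest pairs were Cldn3 with Cldn2 (0.754) and Tjp1 with F11r (0.761), and the most distant were F11r and Cldn2 (1.56).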

How the data were processed

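RNA of 15 samples was measured on 15 arrays. Per the submitters' processing notes, the authors deposited signals of intensity made with MAS5, on a linear scale. The version, the target value and detection calls are not given in the sources used here. The mean after trimming 2% of the values from either end was 150.1 on every array, and at most 122 signals were equal between any 2 arrays. Groups and mice were taken from the labels.

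Probe sets were named with the platform annotation: 20380 that are no controls had 1 gene, 691 had several and 1606 had none. The 64 controls were left out, and those without a gene are counted among the 1606. The deposited signals were turned into log2(signal + 9.1), where 9.1 is the 20th percentile of all signals. Probe sets above the 40th percentile of their array in at least 3 arrays were kept, and the brightest stood for its gene (9528 genes). All arrays were fitted with limma 3.58.1 (statmod 1.5.0, R 4.3.3), eBayes with a trend and the mouse as a random block. The consensus correlation was -0.0175, so the block changes little and tumours of 1 mouse count nearly as separate. The same fit was run on 14796 probe sets. The pairing comes from the labels: after group means were removed, liver and tumour of 1 mouse correlated at -0.158 to 0.0852 and those of different mice at -0.101 to 0.171. Tumours of 1 mouse correlated at -0.054 and 1.0e-04, above all pairs of tumours of different mice (-0.352 to -0.087), so they may share more than the fit allows for.

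The members, the lists and the rule for names were chosen with earlier results of these data known. Named are all members, up to 2 largest rises and falls among called genes of each list or else its brightest gene, and the 2 genes most like each member. Other genes are named as examples of a list, as markers that moved or as first and last neighbours. A list of kidney, gut and pancreas genes, 8 on the array, summed to 122 to 204 in controls, 121 to 180 in knockout livers and 69.4 to 169.5 in tumours, and the endothelial list of 13 genes to 855 to 1054, 1075 to 1617 and 713 to 1457. The number of arrays limits the precision.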

Additional observations from a re-analysis of the deposited data

Results flagged for a closer look

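Of 30 sets of 6 arrays examined, each set being 1 probe set in knockout livers or in tumours, 5 were flagged. All 5 were among the 15 sets of tumours, and in each of them tumour 3 stood apart from the other 5 tumours. The measure was the gap from the lowest array to its nearest neighbour as a share of the range, on the log2 scale, with a limit of 0.625 for 6 arrays, which chance passes in about 1 in 20 sets. For Cldn2 on probe set 1417231_at the share was 0.628, with 10.5 in tumour 3 and 186 in the next tumour. For Cldn3 it was 0.654 on 1434651_a_at, 0.708 on 1426332_a_at, 0.700 on 1451701_x_at and 0.733 on 1460569_x_at. The 4 Cldn3 probe sets read 1 gene in 1 RNA sample and are not separate observations.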

How the results depend on the processing

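The rise of Cdh1 in knockout liver kept its direction under every alternative run and its call under all but the fit with the actin ratio. With only the compared groups in the fit, called genes went from 160 to 994 in knockout liver against control, from 655 to 117 in tumour against control and from 13 to 0 in tumour against knockout liver. Called members went from 1 to 2, from 2 to 0 and stayed at 0, and called member probe sets from 1 to 2, 4 to 0 and 1 to 0. With the actin ratio as a covariate, 21, 21 and 0 genes were called and 0 members in each comparison. Members called in tumour against control were 1 with log2(signal + 32), without the filter, with quantile normalization and with the mean of probe sets. With the mouse as a fixed replicate block, 0 genes and 0 member probe sets were called in tumour against knockout liver. In limma, genes with an unadjusted p under 0.05 in that comparison numbered 731 with the block, 879 with the compared groups alone and 743 with the actin ratio.

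Leaving out 1 array gave 34 to 289 genes in knockout liver against control, 0 to 62 in tumour against knockout liver and 216 to 781 in tumour against control. The fewest came without controls 1 to 3 (34, 49 and 42 in the first, 248, 247 and 216 in the last) and the 62 without tumour 6-1. Called members were 1 in each such fit, 0 in each and 0 to 2, and called member probe sets 1 in each, 0 to 1 and 0 to 5.

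Signs turned only for uncalled changes. For tumour against control, Cldn2 had 0.18 with the actin ratio and 0.28 without tumour 3, with -0.76 to 0.28 over all single omissions, and F11r -0.11 with the mean of probe sets. For knockout liver against control, Cldn3 had 0.016 with quantile normalization, 0.042 with the mean of probe sets and -0.082 to 0.030 over single omissions, and F11r -0.16 with the mean. For tumour against knockout liver, F11r had -0.035 with centred arrays, -0.071 with the actin ratio and -0.15 to 0.091 over single omissions, and Gjb1 0.019 with the fixed block. There Ocln had -0.26 to 0.040, positive without tumour 3, and Cldn1 -0.10 to 0.33, negative without tumour 4. Tjp1 had -0.18 to 0.084, -0.25 to 0.056 and -0.28 to 0.032 over single omissions in knockout liver against control, tumour against knockout liver and tumour against control. Except where fewer arrays were fitted, the cause was not tested. The alternatives in the probe set fit were added after the data were seen.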
